A study of Rattus norvegicus with 6 samples.

Results

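The genes described here are those of DNA replication, the machinery that copies the genome during S phase of the cell cycle. They were chosen by function, from a list of 39 rat gene symbols, and by no cutoff on a measured value. The list was drawn up with earlier results of these data known. Of the 39 symbols, 37 had a probe on the array, out of 15443 named genes, and the brightest probe of a gene stood for it. No probe matched Mcm5 or Rpa1, which are not analysed here. The study asked what a radioactive tracer and the cells that carry it do to gene expression, in culture and in the infarcted heart. Its 6 one-colour arrays came from Sprague Dawley (SD) rats aged 13 weeks.

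The tracer was 124I-HIB, a lipophilic hexadecyl iodobenzoate with a positron-emitting iodine. The cells that carried it were adipose-derived stem cells (ADSCs), a mesenchymal cell type cultured from adipose tissue. Among the cultured cells, 1 array held 124I-HIB-labelled ADSCs and 1 held unlabelled ADSCs, both at 14 days of culture. Among the hearts, 2 arrays held myocardium with an induced infarct that was injected with 124I-HIB-labelled ADSCs (treated, numbered replicates 1 and 3), 1 held infarcted myocardium injected with PBS, and 1 held sham-operated myocardium. The labels date all 4 hearts at 21 days after a sham operation, the infarcted ones included, so the time since infarction is unclear. Infarcted hearts that received unlabelled cells were not analysed here. The labels do not say whether the treated pair came from separate rats, so any p-value rests on the spread of that pair alone, and that spread may be technical.

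Replication begins when the origin recognition complex (Orc genes), Cdc6 and Cdt1 load the ring-shaped Mcm2 to Mcm7 helicase onto DNA, a step called licensing. Cdc45 and the 4-subunit GINS complex then join the helicase to form the active CMG helicase, with Mcm10 as an activator. Polymerase alpha and primase lay down short primers, polymerases delta and epsilon extend them, replication factor C (Rfc genes) loads the sliding clamp Pcna, and RPA coats single-stranded DNA. Fen1 and Lig1 process and join the Okazaki fragments of the lagging strand, and ribonucleotide reductase (Rrm1, Rrm2), Tyms and Tk1 supply deoxynucleotides. Adult cardiomyocytes rarely enter S phase, while mesenchymal cells divide in culture. Many of these genes are targets of the E2F transcription factors, which are released at the passage from G1 to S phase.

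The 39 symbols fell into 10 for licensing, 6 for CMG and initiation, 8 for polymerases and primase, 9 for the clamp, its loader and RPA, 2 for Okazaki fragment joining and 4 for nucleotide supply. The promoters of 33 of them were in the RefSeq table used here (build GRCr8, 250 bases before to 50 bases after each gene's start). They were searched on both strands for the E2F words TTTGGCGC, TTTCCCGC, TTTGCCGC and TTTCGCGC, of which TTTGGCGC on opposite strands can overlap. At least 1 match was found in 15 of the 33 promoters (45.5%), against 716 of all 33469 promoters in the table (2.14%). The mitosis genes, a neighbouring group of the cell cycle, had a match in 1 of 16 promoters (6.25%). A match is only an occurrence of these letters. The sequences below are shown because they hold that shared feature, 1 for each role, taken from the member with an E2F match that differed most between ADSCs and myocardium. For Pole2 that difference rests on dim signals, since it was not well above background in any heart. The sequences run 5′ to 3′ on the strand of the gene, with the E2F words in capitals.
Mcm3, GRCr8 chr9:30733734-30733763, minus strand: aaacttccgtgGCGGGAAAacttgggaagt
Gins1, GRCr8 chr3:160184865-160184919, plus strand: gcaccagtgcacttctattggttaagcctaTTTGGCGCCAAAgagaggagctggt
Pole2, GRCr8 chr6:93435334-93435363, minus strand: cttcggcggtgGCGCCAAAtctcaaacatg
Rfc3, GRCr8 chr12:5836554-5836583, plus strand: acgtcgcagccTTTCGCGCtcGCGGGAAAa
Lig1, GRCr8 chr1:83243178-83243207, plus strand: ccaaggtctgcGCGCGAAAtctgtgtggcg
Tyms, GRCr8 chr9:120776084-120776150, minus strand: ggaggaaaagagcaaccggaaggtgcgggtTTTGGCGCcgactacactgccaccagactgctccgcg

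In the Gins1 promoter, 2 matches on opposite strands overlapped in a palindrome that began 25 bases before the start of the gene. The Rfc3 promoter held 2 different words, 1 spanning the start and 1 after it, and the Tyms match began 37 bases before it. In Pole2 and Lig1 the single match lay just after the start, at bases 10 and 20. The CCAAT box (CCAAT), a binding motif of NF-Y, occurred in 21 of the 33 promoters (63.6%), in 13 of 16 mitosis promoters (81.2%) and in 37.5% of all promoters. The cell cycle homology region (CHR, TTTGAA), a motif known from mitotic genes, occurred in 3 replication promoters (9.09%), in 11 mitosis promoters (68.8%) and in 18.3% of all promoters.

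Levels are given as log2 of the array signal minus the 75th percentile of that array, so 0 is the 75th percentile and 1 unit is a 2-fold difference. A level can be set against the same gene on another array, but not against another gene, since each probe binds its own target. All 37 genes were well above background on both ADSC arrays, and 30 were so on all 6 arrays. The other 7 (Orc1, Cdc6, Cdt1, Gins3, Pola1, Pole and Pole2) were dim on at least 1 heart and are given singly. The 75th percentile was a signal of 2615.3 in labelled and 2360.3 in unlabelled ADSCs, and from 771.9 to 1275.6 in the hearts. No spot was saturated, and the number of arrays limits the precision.

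The hearts carried the markers of cardiac muscle. All 11 cardiomyocyte markers on the array were well above background in the 4 hearts, with a summed level (the signals added, in multiples of the 75th percentile) of 2360 to 3480. In ADSCs 7 of the 11 were, with sums of 3.33 in labelled and 3.14 in unlabelled cells, and Myh6, Myh7, Myl2 and Myl3 were not. All 8 mesenchymal surface markers were well above background on both ADSC arrays, and 7 on each heart array, all but Thy1. Their summed level was 25.4 in labelled and 24.7 in unlabelled ADSCs, against 8.15 to 9.47 in the hearts. Eng went the other way, at -0.13 and 0.01 in ADSCs against 0.11 to 0.31 in the hearts, and Vcam1 overlapped. All 4 leukocyte markers were well above background in every heart, and 3 on each ADSC array, all but Ptprc. They summed to 0.242 and 0.228 in ADSCs, against 6.01 to 8.24 in the hearts. The PBS heart stood apart: all 6 atrial muscle markers were well above background there, against 3 to 4 of 6 in the other hearts. Their summed level was 165 and 142 in the treated hearts, 449 in the PBS heart and 168 in the sham heart. Of these, Myl4 was not raised, at 7.10 in PBS against 6.98 to 7.33 in the other hearts. The red cell markers summed to 6.56 and 7.14 in the treated hearts, 3.15 in PBS and 6.80 in sham. Epb42 went against that sum, at -5.30 in PBS against -6.49 to -5.74 in the other hearts, and was well above background only in PBS. Results that rest on the PBS array are therefore given beside the same comparison without it.

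**Figure D1:**
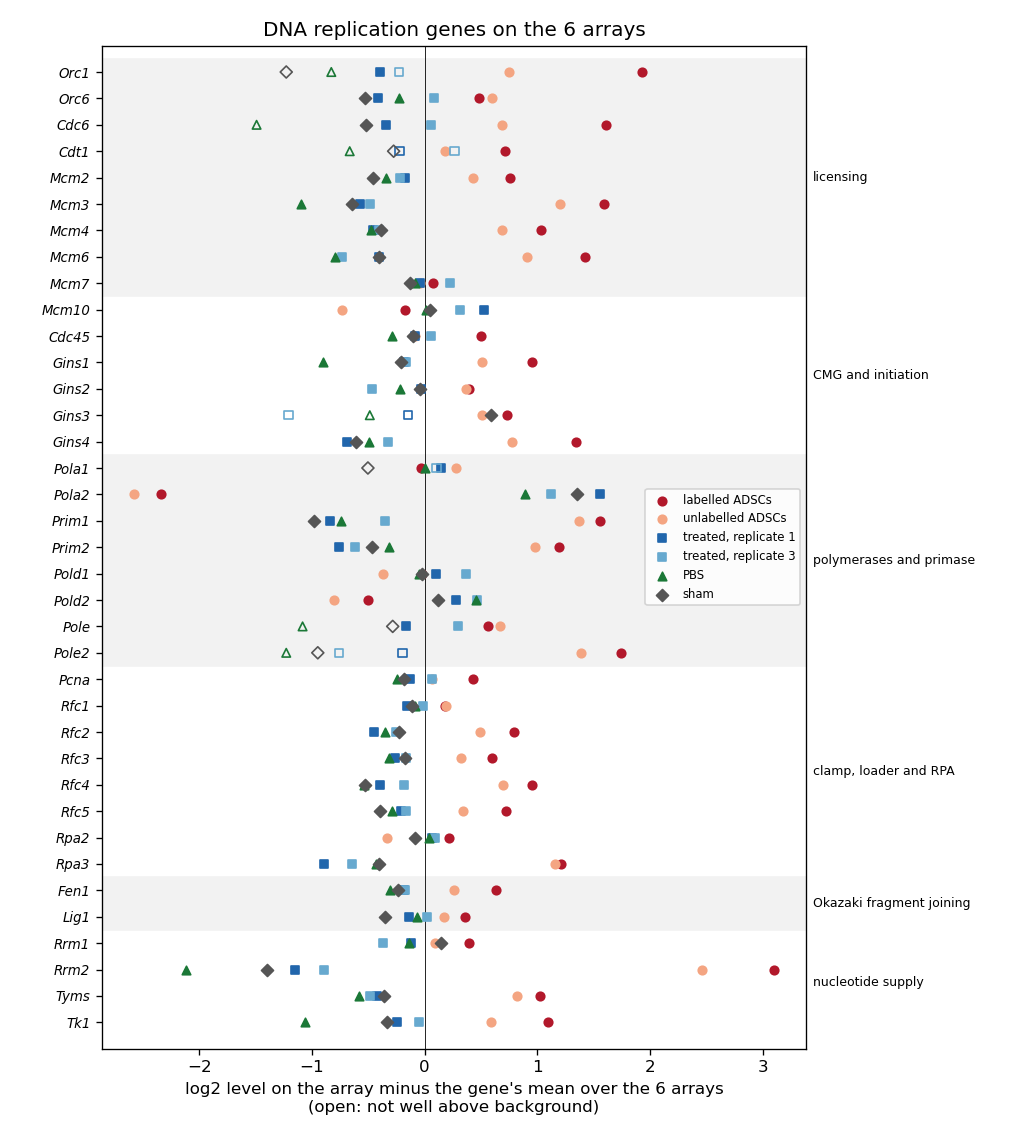
Level of each of the 37 replication genes on each array, as the log2 level minus the gene's mean over the 6 arrays (horizontal axis), with genes grouped by role and open symbols where the probe was not well above background. The ADSC arrays (circles) lie right of the hearts for most genes, with Rrm2 farthest and Pola2 turned the other way.

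Labelled ADSCs were set against unlabelled ADSCs to see what the tracer does to cultured cells. Of the 37 replication genes, 33 were higher in labelled cells and 4 lower, while 43.9% of all 18271 features measured on both arrays were higher. The median difference was 0.33 on the log2 scale, against -0.04 for all features. With 1 array a condition there is no replicate and no test. The differences were small: Orc1 alone was 2-fold higher, as were 0.449% of all features.

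As a scale, the treated hearts, 2 arrays of the same condition, also differed mostly one way. Of 32 replication genes measured on both, 25 were higher in replicate 3 than in replicate 1, with a median difference of 0.14, while 58.2% of all features were higher. Among those 32 genes the largest difference within the pair was 0.50. Between labelled and unlabelled cells 10 of the 37 genes exceeded that size, including Orc1 and Cdt1, which were dim in the pair. Of the genes dim in the pair, Gins3 differed by -1.05 and Pole2 by -0.56 within it. Orc1, Cdt1 and Pola1 differed by 0.17, 0.49 and -0.04.

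In licensing, 8 of 9 genes were higher in labelled cells. Orc1, the largest subunit of the origin recognition complex, stood at -3.86 in labelled and -5.04 in unlabelled cells, a 2.27-fold difference (1.18 on the log2 scale, or 0.66 with the normexp background correction, under 2-fold). Cdc6, the loader that recruits the helicase, stood at -3.21 in labelled and -4.13 in unlabelled cells, a difference of 0.92. The 5 measured helicase genes were higher by smaller amounts, from 0.12 for Mcm7 to 0.53 for Mcm6, and Cdt1, the partner of Cdc6, by 0.53. Orc6, the smallest subunit of the origin complex, was the exception at -4.65 in labelled and -4.54 in unlabelled cells. For Mcm2, Mcm3 and Mcm4 a second probe was also higher in labelled cells, by 0.45, 0.73 and 0.67.

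All 6 genes of the CMG helicase and its activation were higher in labelled cells. With the normexp correction Gins2 (-0.01) and Gins3 (-0.11) were lower. Cdc45 stood at -0.07 in labelled and -0.65 in unlabelled cells, the largest difference of the group at 0.58. The activator Mcm10 and the GINS subunit Gins4 each differed by 0.57 and Gins1 by 0.45. The second Mcm10 probe differed by -0.14 but was not well above background on any array. Gins2 was the smallest, at -4.60 in labelled and -4.63 in unlabelled cells. The subunits of GINS, which work as a single complex, thus ranged from 0.03 to 0.57.

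The polymerases and primase held 2 of the 4 lower genes. Pola1, the catalytic subunit of polymerase alpha, stood at -6.12 in labelled and -5.81 in unlabelled cells, and Pole, the catalytic subunit of polymerase epsilon, was lower by 0.09. Pole2, the second subunit of polymerase epsilon, was the highest of the group at -4.99 in labelled and -5.34 in unlabelled cells. The primase subunits Prim1 and Prim2 differed by 0.19 and 0.21, and Pold1 and Pold2 of polymerase delta by 0.33 and 0.29.

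Among the clamp, its loader and RPA, 7 of 8 genes were higher in labelled cells. Rpa2, a subunit of the single-strand binding protein, stood at -0.35 in labelled and -0.90 in unlabelled cells. The clamp Pcna was higher by 0.37, and the loader subunits Rfc2 to Rfc5 by 0.26 to 0.37. Rfc1, the large loader subunit, was level at 1.35 in labelled and 1.36 in unlabelled cells, and its other 2 probes differed by -0.18 and 0.05.

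The flap endonuclease Fen1 stood at 1.26 in labelled and 0.88 in unlabelled cells, and the ligase Lig1 at 1.09 in labelled and 0.91 in unlabelled cells. In nucleotide supply all 4 genes were higher. Rrm2, the ribonucleotide reductase subunit made in S phase, stood at 3.42 in labelled and 2.78 in unlabelled cells, and its second probe was also higher, by 0.48. Thymidine kinase (Tk1) was higher by 0.51, and Rrm1, the partner subunit of Rrm2, by 0.30. Thymidylate synthase (Tyms) was the smallest, at -1.87 in labelled and -2.08 in unlabelled cells.

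Of 57 other replication and S phase genes measured, 44 were higher in labelled cells, as were 43.9% of all features. The 57 genes had a median of 0.18 and a range from -0.88 to 0.78. The highest were the reductase subunit Rrm2b, known as a p53 target, at -5.43 in labelled and -6.21 in unlabelled cells, cyclin E2 (Ccne2, 0.67) and the Mcm family member Mcm8 (0.61). The lowest were cyclin D2 (Ccnd2), at -1.95 in labelled and -1.07 in unlabelled cells, the nucleotide hydrolase Samhd1 (-0.55) and the histone mRNA binding protein Slbp (-0.47). All 18 measured mitosis genes were higher in labelled cells, from 0.35 for Nusap1 to 0.80 for Ccnb2, with a median of 0.57. No difference between the gene groups was tested. Among the replication genes the median was 0.30 for the 14 with an E2F match in the promoter and 0.30 for the 17 without.

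**Figure D2:**
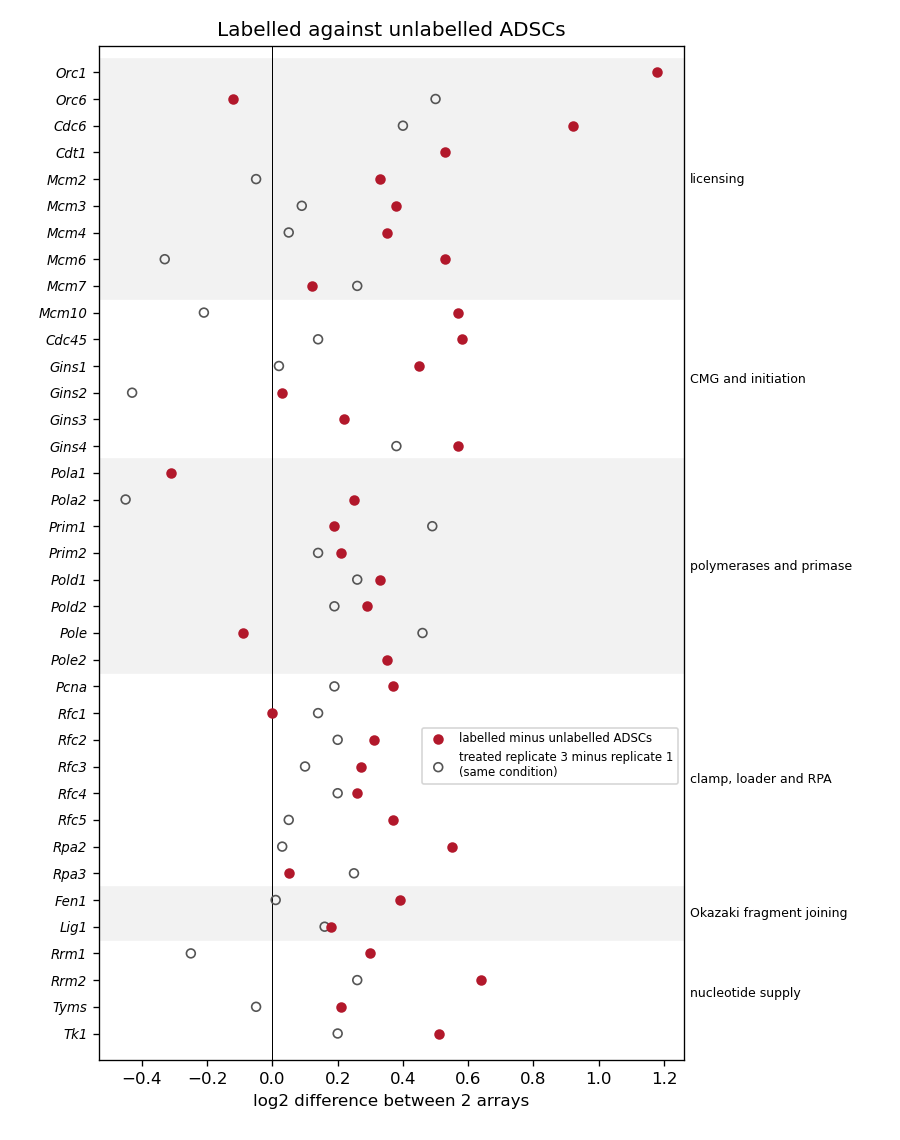
Log2 difference of labelled minus unlabelled ADSCs for each replication gene (filled), beside the difference between the 2 treated hearts, arrays of the same condition, where both measured the gene (open). Of the filled points 33 lie above 0, with Orc1 at 1.18 and Cdc6 at 0.92, and the open points run between -0.45 and 0.50.

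Infarcted hearts that received labelled ADSCs were set against the PBS heart to see what the cell injection does. Of the 30 replication genes measured on all arrays compared, 19 were higher in both treated hearts than in the PBS heart, 2 were lower in both and 9 did not lie one way, while 38.6% of all features were higher in both. The median difference was 0.13, against 0.01 for all features. No replication gene was 2-fold apart in both treated hearts, as 1.26% of all features were. In whole tissue, fewer cells of a type and less RNA per cell cannot be told apart.

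No gene passed limma at an adjusted p under 0.05 (0% of 19603 features), where the treated pair gives the only residual degree of freedom. At an unadjusted p under 0.05, 6 replication genes and 1894 features in all passed. The 6 were Rrm2, Tk1, Gins1 and Mcm3, and 2 genes dim in the PBS heart, Cdc6 and Pole. The lowest adjusted p of a replication gene was 0.360 by limma, for Cdc6 and Rrm2.

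Among the genes measured on all 4 hearts, those farthest from the PBS heart belonged to nucleotide supply and initiation. Rrm2 stood at -0.83 and -0.57 in the treated hearts, -1.80 in the PBS heart and -1.08 in the sham heart. Tk1 stood at -1.27 and -1.08 in the treated hearts, -2.09 in PBS and -1.36 in sham. Gins1, a subunit of the GINS complex, stood at -2.51 and -2.49 in the treated hearts, -3.23 in PBS and -2.54 in sham. In each of the 3 genes the PBS heart was the lowest of the 4 arrays, and the treated hearts lay within 0.51 of the sham heart. The limma differences from PBS were 1.1 ± 0.20 for Rrm2, 0.92 ± 0.19 for Tk1 and 0.73 ± 0.16 for Gins1 (SE), with adjusted p of 0.360, 0.388 and 0.415. The second Rrm2 probe, which was not well above background in any heart, differed by 1.60.

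Among the licensing genes measured on all 4 hearts, Mcm3 was the farthest at -0.60 and -0.51 in the treated hearts, -1.12 in PBS and -0.67 in sham. Its second probe gave a similar difference from PBS, 0.59 beside 0.56, but placed the PBS heart 0.12 above the sham heart where the first probe placed it 0.45 below. Mcm4 differed least, at -0.50 and -0.45 in the treated hearts, -0.52 in PBS and -0.43 in sham. Mcm2, Mcm6 and Mcm7, the other measured helicase genes, were each higher in both treated hearts, by means of 0.14 to 0.22. The second Mcm2 probe did not lie one way, at -5.03 and -4.79 in the treated hearts and -4.91 in PBS.

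Among the polymerase and primase genes measured on all 4 hearts, Pola2 was the highest against PBS and Prim2 the lowest. Pola2, the regulatory subunit of polymerase alpha, stood at -1.92 and -2.36 in the treated hearts, -2.59 in PBS and -2.13 in sham. Prim2 was lower in both treated hearts, at -1.15 and -1.01, against -0.71 in PBS and -0.86 in sham. Rpa3, the smallest RPA subunit, was likewise lower, at -1.91 and -1.66 in the treated hearts, -1.45 in PBS and -1.42 in sham. Both stayed below the 2 control hearts, with adjusted p of 0.636 for Prim2 and 0.701 for Rpa3 by limma against PBS.

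The clamp loader, the ligation genes and the remaining nucleotide genes differed little. Rfc4 stood at -2.98 and -2.77 in the treated hearts, -3.12 in PBS and -3.11 in sham, the highest of its group. Fen1 stood at 0.44 and 0.45 in the treated hearts, 0.32 in PBS and 0.39 in sham, and Lig1 at 0.60 and 0.76 in the treated hearts, 0.67 in PBS and 0.38 in sham. Rrm1 stood at -4.78 and -5.03 in the treated hearts, -4.80 in PBS and -4.52 in sham. Gins2, at -5.03 and -5.46 in the treated hearts, -5.21 in PBS and -5.04 in sham, had its PBS value between the treated pair.

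Of the genes dim in a control heart, Cdc6 stood at -5.16 and -4.76 in the treated hearts and -5.34 in sham, and was not well above background in PBS. In the treated hearts it lay 1.91-fold above the lowest signal well above background on the PBS array (adjusted p 0.360 by limma on the measured signals). Pole stood at -5.48 and -5.02 in the treated hearts and was not well above background in either control heart. It lay 1.56-fold above that lowest signal in PBS (adjusted p 0.435 by limma on the measured signals). Against sham its measured signal was 1.27-fold higher (adjusted p 0.701 by limma). The folds of 1.91 and 1.56 are no lower bounds. That lowest signal is no detection limit, since brighter probes can miss the background call. With the normexp correction the log2 differences were 0.35 for Cdc6 and 0.27 for Pole against PBS, and that of Pole against sham turned to -0.14. Cdt1 and Pole2 were not well above background in any heart. Orc1 was well above background only in treated replicate 1, Gins3 only in sham, and Pola1 only in treated replicate 1 and PBS.

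The PBS heart was set against the sham heart to see what infarction does, with 1 array each and no test. Of 30 replication genes 19 were lower in PBS, near the 55.5% of all features that were lower, with a median of -0.04 against -0.05. None was 2-fold apart, as 3.67% of all features were. The 4 nucleotide supply genes were all lower in PBS, from -0.23 for Tyms to -0.74 for Tk1, with Rrm2 at -0.72, and Gins1 was lower by 0.70. On the other side stood Pold2, an accessory subunit of polymerase delta, at 1.91 in PBS and 1.57 in sham, and Lig1. Orc6 stood at -5.36 in PBS and -5.67 in sham, a difference of 0.31 that turned to -0.36 with the normexp background correction. The clamp, loader and RPA genes differed least, between -0.14 for Rfc3 and 0.12 for Rpa2. Cdc6 in sham lay 1.47-fold above the lowest signal well above background on the PBS array, where it was dim. That fold is no lower bound.

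Because the same PBS array enters both of these comparisons, a low value there lowers the one difference and raises the other. The treated hearts were therefore also set against the sham heart, which leaves that array out of the difference. Of 31 replication genes measured, 19 were higher and 6 lower in both treated hearts, with a median of 0.12, where 32.9% of all features were higher in both and the median of all features was -0.04. None was 2-fold apart, as 0.973% of all features were, and none passed limma (0% of 19603 features, with 2 replication genes and 1886 features at an unadjusted p under 0.05). With the normexp background correction 11 genes were higher and 12 lower, with a median of 0.01, while the median of all features was -0.13.

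The genes that stood out against PBS were close to the sham heart. Against sham, the difference was 0.38 for Rrm2, 0.18 for Tk1, 0.03 for Gins1 and 0.12 for Mcm3. The highest in each role against sham were Cdc6, Mcm10 and Prim1 (each 0.38), Rfc4 (0.23), Lig1 (0.30) and Rrm2, of which Cdc6 turned to -0.26 with normexp. Prim1 stood at -2.06 and -1.57 in the treated hearts, -1.96 in PBS and -2.20 in sham, and Mcm10 at -3.43 and -3.64 in the treated hearts, -3.94 in PBS and -3.91 in sham. The lowest were Mcm6 (-0.16), Gins2 (-0.21), Prim2 (-0.22), Rpa3 (-0.36) and Rrm1 (-0.38), while Fen1 differed by 0.06. The lowest adjusted p of a replication gene was 0.431 by limma, for Orc1, a gene dim in the sham heart, whose difference of 0.91 turned to -0.21 with normexp.

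Of the other replication and S phase genes, 49 were measured against PBS. Of these, 24 were higher and 8 lower in both treated hearts, with a median of 0.08, and none passed limma. Of all 17338 features so measured, 38.6% were higher and 5930 features lower in both. The PCNA-binding factor Pclaf was the highest, at -4.77 and -4.35 in the treated hearts, -5.66 in PBS and -4.69 in sham, followed by cyclin E1 (Ccne1) and the licensing inhibitor geminin (Gmnn), each 0.80 higher than in PBS. The lowest were the cyclin-dependent kinase inhibitor Cdkn2c (-0.46), the mitochondrial thymidine kinase Tk2 (-0.30) and Nme1 (-0.23). In PBS against sham the lowest were the deoxycytidine kinase Dck (-1.30, the one gene 2-fold apart), Pclaf (-0.98) and Ccne1 (-0.55), and the highest were the helicase-activating kinase Cdc7 (0.70), E2f7 (0.47) and Rb1 (0.41). Against sham the treated hearts were highest in Cdc7 (0.81), Timeless (0.56) and Orc3 (0.51) and lowest in Cdkn1a (-0.42), E2f6 (-0.42) and Asf1a (-0.37).

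All 16 mitosis genes measured were lower in PBS than in sham, with a median of -0.56 and a range from -1.54 for Ccna2 to -0.19 for Aurka. All 16 were higher in both treated hearts than in PBS, with a median of 0.89 and a range from 0.22 for Aurka to 1.56 for Ccna2. Against sham the median was 0.16, with 10 higher and 2 lower in both treated hearts, from -0.10 for Cdc20 to 0.60 for Kif20a. Of all features, 55.5% were lower in PBS than in sham. In both treated hearts 38.6% were higher than in PBS, and 32.9% were higher than in sham. The part of the marker differences of the PBS heart in these values was not tested.

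**Figure D3:**
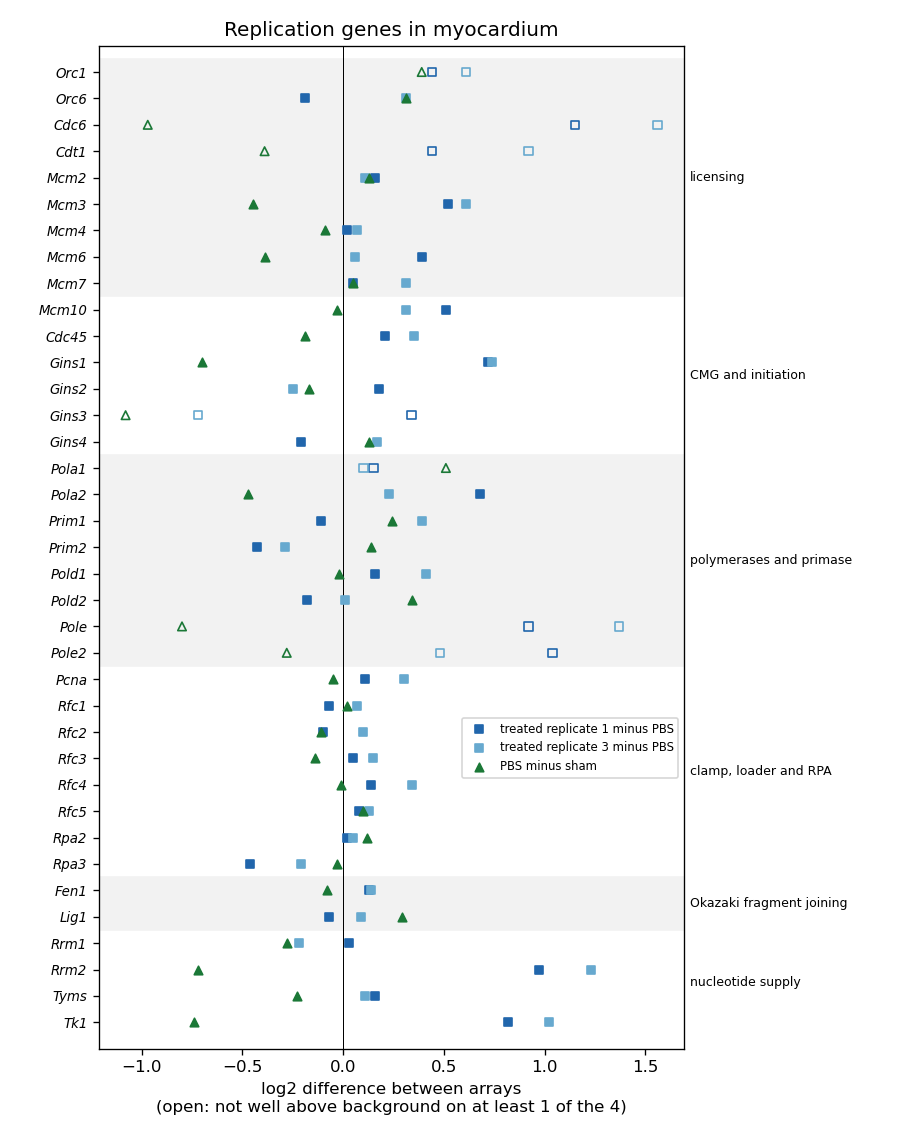
Log2 differences of the replication genes among the hearts: each treated heart minus the PBS heart (squares) and the PBS heart minus the sham heart (triangles), with open symbols for genes not well above background on all 4. Both squares of Rrm2, Tk1, Gins1 and Mcm3 lie right of 0 and their triangles left of it, and all 3 differences share the PBS array.

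Cultured ADSCs were set against myocardium, with the mean of the labelled and unlabelled cells against the mean of the treated, PBS and sham hearts. Of the 30 replication genes measured on all 6 arrays, 18 rose and 3 fell in ADSCs at an adjusted p under 0.05 by limma, while 33.5% of all 15886 features so measured rose and 32.9% fell. The median difference was 0.83, against 0.03 for all features. In 22 genes both ADSC arrays lay above all 4 hearts, and in 3 below, where 41.3% of all features lay above and 38.9% below. The ADSC arrays have no replicate and are assumed to vary like the treated pair, and cells and hearts lay in different rows of the slide, which cannot be told apart from the difference between them.

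Nucleotide supply held the largest rise. Rrm2 stood at 3.42 and 2.78 in labelled and unlabelled ADSCs, against -1.80 to -0.57 in the hearts, a difference of 4.29 ± 0.15 (SE) or 19.6-fold with an adjusted p of 0.000997 by limma. Its second probe differed by 4.51 but was well above background only in ADSCs. Tyms (1.39 ± 0.12, or 0.76 with the normexp correction) and Tk1 (1.36 ± 0.14) rose as well. Rrm1, the partner subunit of Rrm2 in the same enzyme, stood at -4.27 and -4.57 in ADSCs, against -5.03 to -4.52 in the hearts, and did not pass (0.32 ± 0.15, adjusted p 0.144).

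In licensing, Mcm3 rose most, at 1.57 and 1.18 in ADSCs against -1.12 to -0.51 in the hearts (2.16 ± 0.13, 4.46-fold, adjusted p 0.00188), and its second probe differed by 2.01. Mcm6 (1.75 ± 0.17), Mcm4 (1.29 ± 0.12), Mcm2 (0.93 ± 0.12) and Orc6 (0.84 ± 0.21) rose too. With the normexp correction Mcm6 passed at 0.82 and Orc6 turned to -0.41. Mcm7, a subunit of the same ring, stood at 0.85 and 0.73 in ADSCs and 0.64 to 1.00 in the hearts, with the groups overlapping and a difference of 0.06 ± 0.15. The 2 probes of Mcm4 differed in size, at 1.29 and 3.80, and the second was well above background only in ADSCs.

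Among the CMG genes, Gins4 (1.60 ± 0.18) and Gins1 (1.16 ± 0.12) rose. Gins4 stood at -0.37 and -0.94 in ADSCs, against -2.41 to -2.04 in the hearts. Gins2 (0.55 ± 0.19, adjusted p 0.0815) and Cdc45 (0.34 ± 0.13, adjusted p 0.0968) did not pass. Mcm10 went the other way, at -4.13 and -4.69 in ADSCs against -3.94 to -3.43 in the hearts (-0.61 ± 0.14, adjusted p 0.0314), and its second probe was not above background anywhere. Without the unlabelled culture the difference was -0.33 with an adjusted p of 0.198.

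The polymerase and primase genes split. Prim1 stood at 0.34 and 0.15 in ADSCs, against -2.20 to -1.57 in the hearts (2.24 ± 0.21, 4.71-fold), and Prim2 rose by 1.58 ± 0.13. Pola2 stood at -5.82 and -6.06 in ADSCs, against -2.59 to -1.92 in the hearts, which makes it 12.6-fold lower in ADSCs (-3.66 ± 0.20, adjusted p 0.00167). With the normexp correction the Pola2 difference was -2.48. Pola2 and the primase subunits belong to the same 4-subunit complex, and on these arrays their single probes lay on opposite sides. Pold2 fell by 0.97 ± 0.14 with an adjusted p of 0.0105 by limma, and Pold1 did not pass (-0.25 ± 0.15, adjusted p 0.223).

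The clamp loader rose in 4 of its 5 subunits: Rfc4 (1.28 ± 0.14), Rfc2 (0.95 ± 0.14), Rfc5 (0.82 ± 0.12) and Rfc3 (0.70 ± 0.13), while Rfc1 did not pass (0.28 ± 0.13, adjusted p 0.146). The clamp itself, Pcna, did not pass either (0.41 ± 0.14, adjusted p 0.0760), with both ADSC values, 0.74 and 0.37, at or above the highest heart, 0.37. Rpa3 rose by 1.71 ± 0.15, with 0.19 and 0.14 in ADSCs against -1.91 to -1.42 in the hearts. Rpa2 stood at -0.35 and -0.90 in ADSCs and -0.65 to -0.48 in the hearts, with no difference that passed. Fen1 rose by 0.68 ± 0.12, and Lig1 missed the threshold at 0.43 ± 0.13 with an adjusted p of 0.0635.

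Of the 7 genes dim in some hearts, 5 passed in the same fit, where 6690 of all 21173 features rose and 7397 fell. Cdt1 and Pole2 entered that fit only because they were bright in ADSCs, so their calls lend no support. Pole2 in ADSCs lay 1.53-fold above the lowest signals well above background in the hearts, which is no lower bound. It was dim in all 4 hearts (measured means -5.17 in ADSCs and -7.62 in myocardium, adjusted p 0.00432 by limma). Cdt1, dim in all hearts too, allowed no fold (measured means -6.10 in ADSCs and -6.85 in myocardium, adjusted p 0.0474). Orc1, Cdc6 and Pole were well above background on 1, 3 and 2 of the 4 hearts, so the size of their differences rests in part on dim signals. Their measured means were -4.45 in ADSCs and -6.58 in myocardium for Orc1, -3.67 in ADSCs and -5.54 in myocardium for Cdc6, and -4.70 in ADSCs and -5.75 in myocardium for Pole. None of the 5 calls held with the normexp correction, where the difference was 0.04 for Orc1, 0.30 for Cdc6, -0.28 for Pole, -0.27 for Pole2 and -0.72 for Cdt1. In the other alternatives Pole missed the threshold in 2 and Cdt1 in 6. Gins3 and Pola1 did not pass, with adjusted p of 0.148 and 0.163 by limma.

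By promoter, the 9 measured genes with an E2F match had a median of 0.93, and the 17 without one a median of 0.55, with ranges from -0.07 to 2.16 and from -3.66 to 2.24. The filter left out Cdt1, Gins3, Pola1, Pole and Pole2 of the 14 with a match, all dim in some hearts, and none of the 17. Rrm2, Mcm4, Gins4 and Rpa3, whose promoters were not in the RefSeq table, were on neither side. The difference between the sides was not tested. Leaving out the PBS heart gave 19 genes higher and 3 lower, and leaving out the labelled or the unlabelled culture gave 15 or 18 higher. Of the 21 genes that passed, 17 passed in every alternative that gave a test. Mcm10, Rfc3 and Fen1 missed the threshold in at least 1, and Orc6 missed it in 4 and turned with the normexp correction.

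Of the 49 other replication and S phase genes measured on all 6 arrays, 26 rose and 11 fell in ADSCs. Of all features so measured, 33.5% rose and 32.9% fell. The highest were the cell cycle inhibitor Cdkn2a, at 2.06 and 1.73 in ADSCs against -4.83 to -4.01 in the hearts (6.51 ± 0.21), Ccne1 (4.01 ± 0.13) and the deoxycytidylate deaminase Dctd (3.54 ± 0.12). The lowest were Ccnd2 (-3.18 ± 0.16), the repressor E2f6 (-2.47 ± 0.14) and the mitochondrial deoxyguanosine kinase Dguok (-1.56 ± 0.14). All 16 measured mitosis genes rose, from 1.35 for Cdc20 to 3.53 for Ccna2, with a median of 2.78. The cardiomyocyte markers that mark the hearts differed between these arrays as well. So did the fibroblast markers, which summed to 369 and 362 in ADSCs against 62.9 to 83.6 in the hearts. Of these, Tcf21 went the other way, at -8.87 and -8.06 in ADSCs against -2.05 to -1.43 in the hearts. Dcn was close, at 4.53 and 4.83 in ADSCs against 4.06 to 4.50 in the hearts. The part of cell makeup in the replication gene values was not tested.

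**Figure D4:**
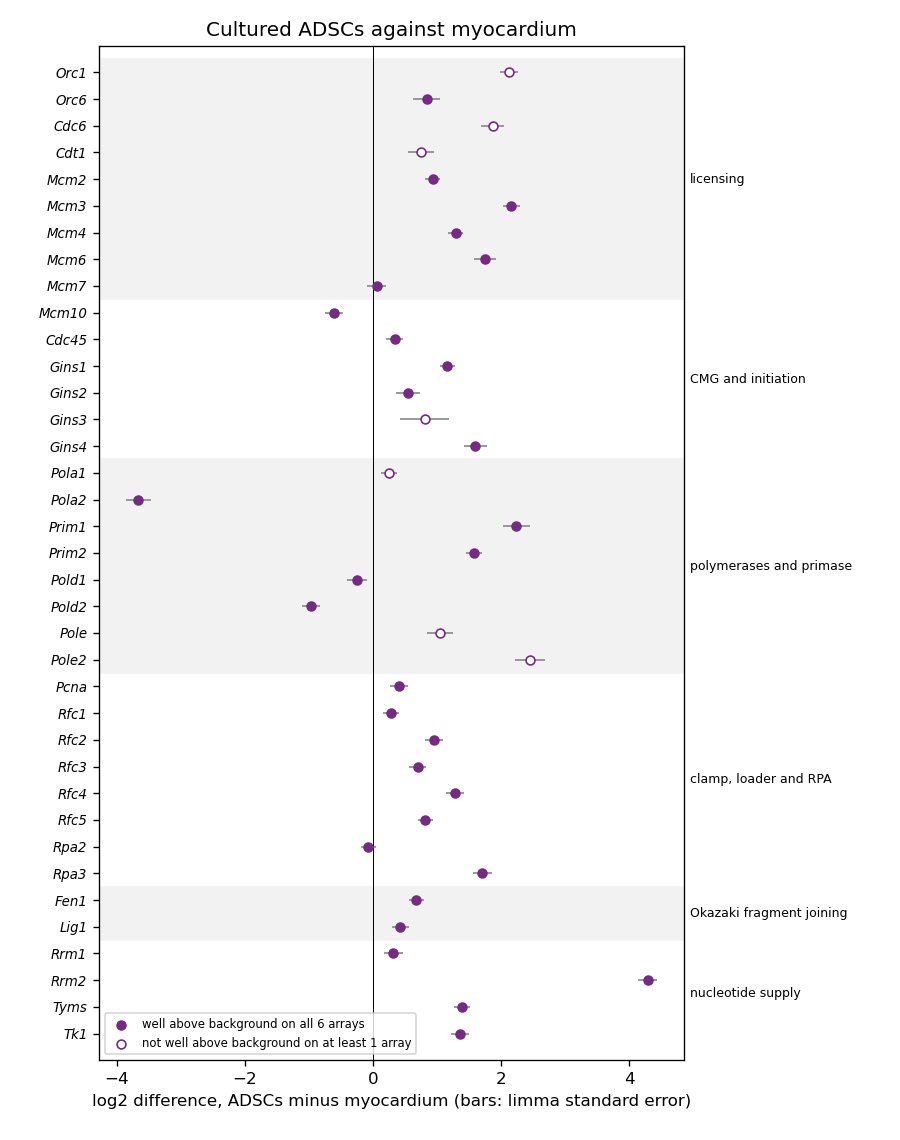
Log2 difference of ADSCs minus myocardium for each replication gene, with the limma standard error, grouped by role. Rrm2 lies at 4.29 and Pola2 at -3.66, most other genes lie between 0 and 2.5, and open symbols are genes not well above background on at least 1 array.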

How the data were processed

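RNA was labelled with Cy3 and hybridised to 6 one-colour Agilent arrays, all on 1 slide and 1 scan date, per the file headers. The authors deposited scanner intensity values (Agilent Feature Extraction, version 11.0.1.1, as the submitters' processing notes say) and a table of log2 values whose scaling the sources used here do not give. In that deposited log2 table the columns correlate with log2 scanner signal (r of 0.9997 or more), run in the same direction, and have equal medians within hearts (8.85) and within cells (9.67). It served as an alternative.

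Log2 processed signal was taken minus each array's 75th percentile. Control and flagged spots were dropped, and repeat spots of 1 probe averaged. Of 30367 probes 18355 received a symbol through RefSeq accessions (assembly GRCr8), and the brightest probe stood for a gene, giving 27455 features. A probe may also bind paralogs. Limma 3.58.1 in R 4.3.3 (lmFit, eBayes, Benjamini-Hochberg) was run on features well above background on at least 1 array. It was also run on data simulated from its own fitted variance, which cannot check whether the ADSC arrays vary like the treated pair. The 4 hearts shared 1 fit, and ADSCs minus myocardium used all 5 groups. The members, lists, rules and alternatives were chosen with earlier results of these data known. Per role and comparison, the members with the largest and smallest difference were named, with the 3 highest and 3 lowest other genes. Figures were drawn with matplotlib 3.10.9.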

Additional observations from a re-analysis of the deposited data

How the results depend on the processing

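Alternatives were normexp background correction (offset 50), quantile normalization, a 75th percentile over probes well above background, no filter on background, the mean of a gene's probes, the authors' deposited table, a 1.5-fold threshold, a trended robust variance, a two-level fit, and leaving out arrays. The slide could not be a block, since all arrays lay on 1. No paired analysis was possible because the groups share fewer than 2 replicate numbers. Without a treated array no residual degree of freedom is left, so those values carry no test.

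Replication genes 2-fold apart numbered 1 in labelled against unlabelled ADSCs, but 0 with normexp (Orc1 at 0.66) and 3 at 1.5-fold, and all features 190, but 71 with normexp, 1372 unfiltered and 1188 at 1.5-fold. In PBS against sham they numbered 0, but 1 unfiltered and 3 at 1.5-fold, and all features 634, but 240 with normexp, 2314 unfiltered and 2278 at 1.5-fold. In treated against PBS they numbered 0, but 1 with quantile normalization, unfiltered, with the mean of probes and in the authors' table, 3 at 1.5-fold, and 0 to 2 without a treated replicate. All features there numbered 219, but 89 with normexp, 828 unfiltered, 846 at 1.5-fold and 445 to 512 without a treated replicate, and limma called 82 with normexp and 58 with the trended variance in place of 0. In treated against sham all features numbered 166, but 73 with normexp, 820 unfiltered, 745 at 1.5-fold and 377 to 414 without a treated replicate, and limma called 50 with normexp, 51 with the trended variance and 2 in the authors' table in place of 0. No replication gene was among these limma calls. With normexp 11 replication genes were higher in both treated hearts than in sham, in place of 19.

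In ADSCs against myocardium, normexp called 7 of the 30 genes measured on all 6 arrays lower, in place of 3. Among all features of the fit it called 11522 lower in place of 7397, and 12086 were lower unfiltered. Normexp reversed Orc6 (-0.41), Cdt1 (-0.72), Gins2 (-0.32), Gins3 (-0.74), Pola1 (-0.75), Pole (-0.28), Pole2 (-0.27) and Rrm1 (-0.37). Outside the 30 genes, Cdt1, Gins3 and Pola1 thereby passed as lower too (adjusted p 0.000756, 0.00036 and 0.000403 by limma). Normexp also ended the calls of Orc1 (0.04, adjusted p 0.814) and Cdc6 (0.30, adjusted p 0.0551) by limma. The cause was not tested.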
